A study of Bos taurus with 8 samples.

Results

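The genes described here are 28 bovine genes of cholesterol synthesis and sterol control, listed by their known roles. They comprised 8 enzymes of the mevalonate and isoprenoid steps, 11 enzymes from squalene to cholesterol, 4 genes that control sterol-dependent transcription, and 5 genes of sterol transport, esterification and 25-hydroxylation. A detected array probe was found for 26 of the 28 genes, among 10860 genes with a detected probe in all. INSIG2 and STARD4 had no matched probe and were not analysed here. All 8 samples were livers of Japanese Black cattle fetuses, taken at 8.5 months post-conception. Dams of the low-nutrition (LN) group received 60% of their nutritional requirement through gestation, and those of the high-nutrition (HN) group 120%. Fetuses L5, L6, L8 and L9 were LN and fetuses L1, L2, L3 and L10 were HN (n = 4 each). By the study's methods, all fetuses had the same sire and came from male-sorted semen, and the arrays took fetuses of lowest body weight from LN and of highest from HN, so diet was compared at the extremes of body weight and without dams fed at requirement.

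The liver makes cholesterol for its own membranes, for lipoproteins and for bile acids. Acetyl-CoA is joined to 3-hydroxy-3-methylglutaryl-CoA and reduced to mevalonate, mevalonate is built into farnesyl diphosphate, and a pair of these gives squalene, which is closed to lanosterol and trimmed to cholesterol. When sterols in the endoplasmic reticulum fall, SCAP escorts the membrane-bound factor SREBP-2 (gene SREBF2) to the Golgi, where it is cut and freed to switch on most genes of this route. INSIG proteins hold SCAP back when sterols are plentiful, so the enzymes are known to rise and fall as a block.

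The study also measured FDPS and HMGCS1 by quantitative PCR, and those values were not used here. The designed primers are shown because they mark which transcripts of the pathway were followed by both methods. For each gene they name the same RefSeq transcript as the array probe, NM_177497 for FDPS and NM_001206578 for HMGCS1, and each is written 5′ to 3′.
FDPS forward: actccttttaccttcctgtagctg
FDPS reverse: cacttgttgtcctggatgtctgt
HMGCS1 forward: ccttcgttggtcgttcactttcta
HMGCS1 reverse: ggaaaatagatctcaagggcaaca

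Each value below is the quantile-normalised log2 signal of 1 array, so 1 unit is a 2-fold change, and a gene is represented by the brightest of its detected probes. Levels are compared between fetuses for a given probe and never between genes. Of 43803 spots per array, 32635 to 33371 were well above background in LN and 33254 to 34369 in HN, and 0 were saturated. Correlations between fetuses over the detected probes ranged from 0.977 to 0.989. The LN arrays lay on 1 slide and the HN arrays on another, so slide, scan and diet cannot be told apart. The 7 hepatocyte markers on a list of such genes were all detected, and their mean signal lay between 17.6 and 17.9 in the 8 fetuses.

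In the LN fetal liver, 21 of the 26 genes had a lower mean signal than in the HN fetal liver, against 48.4% of all genes with a detected probe. The median LN-HN difference over the 26 genes was -0.16, against 0.0075 over all genes. However, 0 of 26 genes passed an adjusted p of 0.05 by limma, and neither did any of the 33439 detected probes (0% called, lowest adjusted p = 0.634, 2113 probes at an unadjusted p of 0.05). At an unadjusted limma p of 0.05, 1 of the 26 genes was called, CH25H, against 6.05% of all genes. The LN and HN fetuses did not overlap in 1 of the 26 genes, again CH25H, against 4.14% of all genes. The lower median rested on HN fetus L10: without it the median over the 26 genes was 0.029 and 11 genes were lower in LN. The 95% interval of the difference held 0 in 25 of the 26 genes.

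**Figure D1:**
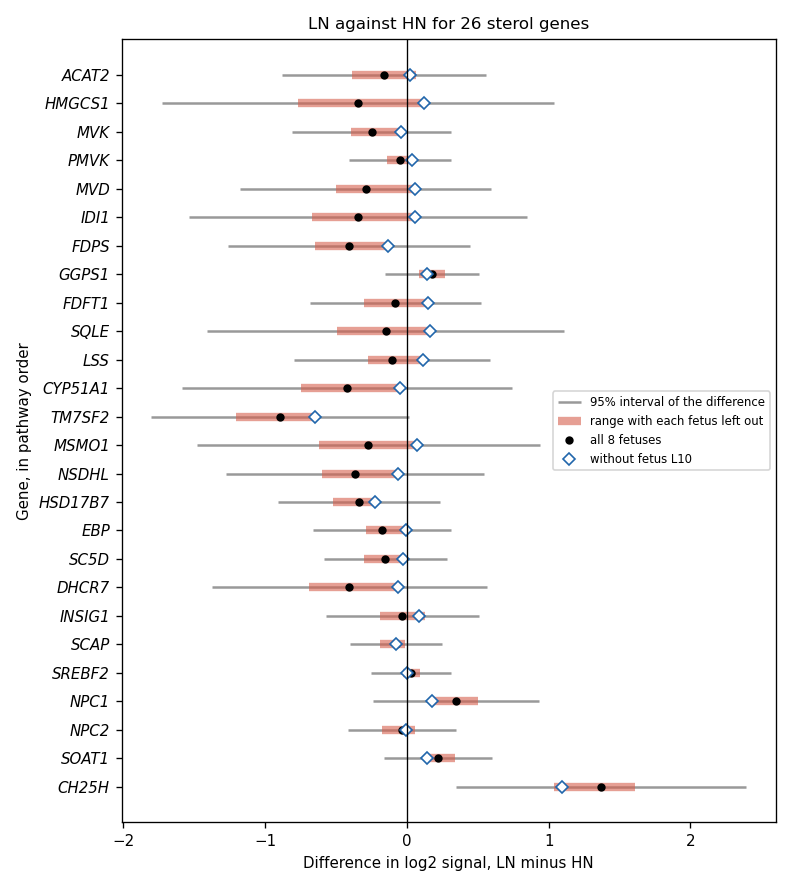
Difference in log2 signal, LN minus HN, for the 26 genes in pathway order, with the 95% interval (grey), the range with each fetus left out in turn (red), the value over all 8 fetuses (black) and the value without fetus L10 (open diamond). Intervals of 25 genes cross 0, and without L10 most enzymes lie close to 0.

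The larger division lay between fetuses of the same diet. The 4 fetuses and the pairs counted here were picked after these values were seen, so the counts are a description and not a test. The enzymes are known to move as a block, so the genes are not independent observations. In 15 of the 26 genes the 4 highest fetuses were L5 and L8 of the LN group and L2 and L10 of the HN group, against 4.24% of all genes, and in 1 gene, NPC1, these were the 4 lowest, against 4.26%. Within LN, L5 and L8 were the upper pair in 16 genes, against 27.5% of all genes. Within HN, L2 and L10 were the upper pair in 19 genes, against 18.3%. Fetus L10 had the highest signal of all 8 in 18 genes, against 14.9% of all genes, and fetus L9 the lowest in 8. Counted over probes, 34 of the 57 detected probes of these genes had L5, L8, L2 and L10 as the 4 highest.

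**Figure D2:**
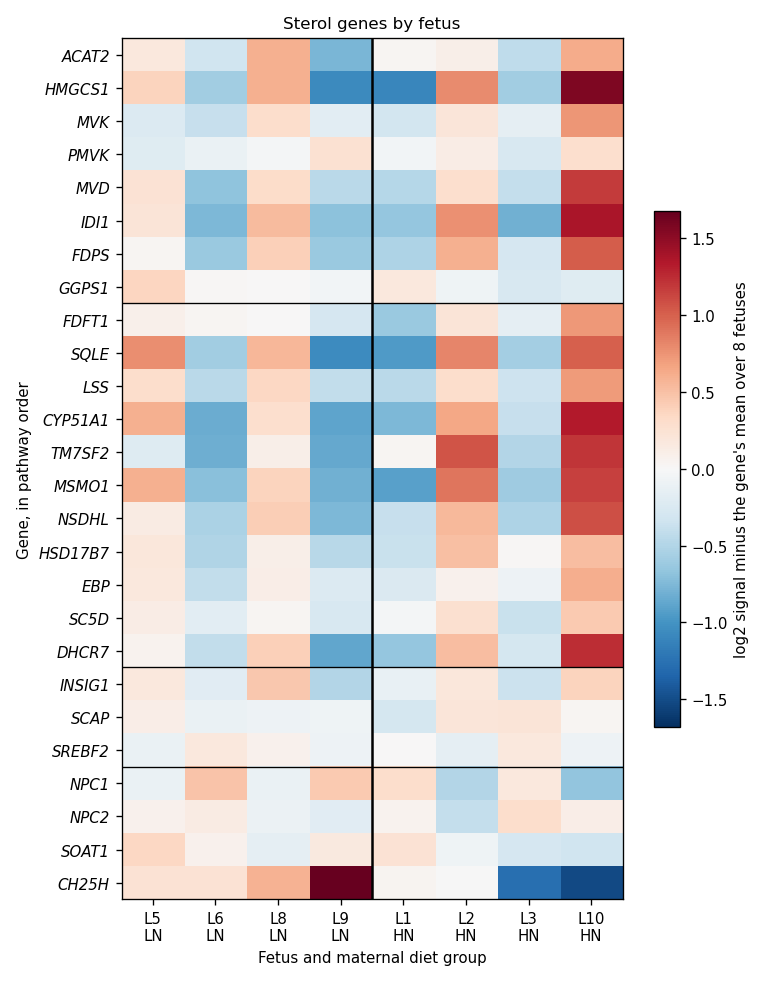
Log2 signal of each of the 26 genes in each fetus, as the difference from that gene's mean over the 8 fetuses (red higher, blue lower). LN fetuses are left and HN fetuses right of the vertical line, and horizontal lines part the 4 groups of genes. Columns L5, L8, L2 and L10 are mostly red through the enzymes and columns L6, L9, L1 and L3 mostly blue.

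Of the 8 enzymes of the mevalonate and isoprenoid steps, 7 had a lower mean in LN, with a median difference of -0.27 that became 0.046 without L10. HMGCS1 (NM_001206578), the synthase that makes 3-hydroxy-3-methylglutaryl-CoA in the cytosol, had signals of 11.08 in L5, 10.13 in L6, 11.31 in L8 and 9.64 in L9, and of 9.62 in L1, 11.51 in L2, 10.13 in L3 and 12.28 in L10. The highest and the lowest fetus, L10 and L1, were both HN and 6.33-fold apart. The group means were 10.54 ± 0.79 for LN and 10.89 ± 1.22 for HN (mean ± SD, n = 4 each), and the SDs exceeded their difference of -0.34 (standard error 0.61, limma adjusted p = 0.942, exact permutation p = 0.629). This difference became 0.12 without L10.

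IDI1 (NM_001075659), which isomerises isopentenyl diphosphate, had signals of 10.24 in L5, 9.28 in L6, 10.57 in L8 and 9.35 in L9, and of 9.38 in L1, 10.80 in L2, 9.22 in L3 and 11.41 in L10. Its upper and lower fetuses were separated by a gap of 0.86, and each diet group held 2 on either side. The LN-HN difference of IDI1 was -0.34 (standard error 0.53, limma adjusted p = 0.931, exact permutation p = 0.600), which became 0.058 without L10.

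FDPS (NM_177497), the farnesyl diphosphate synthase, had signals of 12.52 in L5, 11.86 in L6, 12.88 in L8 and 11.85 in L9, and of 11.97 in L1, 13.08 in L2, 12.20 in L3 and 13.51 in L10. The upper fetuses were again L5, L8, L2 and L10, and the groups overlapped. Its difference was -0.41 (standard error 0.38, limma adjusted p = 0.874, exact permutation p = 0.400), which became -0.14 without L10, and its other detected probe gave -0.43.

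ACAT2 (difference -0.16), an acetoacetyl-CoA thiolase, and MVD (-0.29), the mevalonate diphosphate decarboxylase, had the same 4 upper fetuses. MVK (-0.25) and PMVK (-0.048), the kinases of the mevalonate steps, did not: in MVK the LN fetus L5, at 11.94, lay below L9 at 12.00 and L3 at 12.02. The second, dimmer probe of MVK did have that order, with a gap of 0.44 and a difference of -0.39, and the second probe of PMVK did not. GGPS1, which makes geranylgeranyl diphosphate for protein prenylation and so branches off the sterol route, was the single enzyme with a higher mean in LN, by 0.18 (standard error 0.15, exact permutation p = 0.229), and L10 was not its highest fetus.

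All 11 enzymes from squalene to cholesterol had a lower mean in LN, with a median difference of -0.27 that shrank to -0.029 without L10. In each of the 11, L10 was the highest fetus. SQLE (NM_001098061), the squalene epoxidase that inserts the first oxygen, had signals of 13.63 in L5, 12.25 in L6, 13.40 in L8 and 11.78 in L9, and of 11.89 in L1, 13.66 in L2, 12.27 in L3 and 13.85 in L10. The gap of 1.13 between its 4 upper and 4 lower fetuses was the widest among all genes with a detected probe that had this order. The difference between the diet means, -0.15, was a small part of that gap (standard error 0.56, limma adjusted p = 0.973, exact permutation p = 0.629). It became 0.16 without L10. Of the variance of SQLE, 0.854% lay between the diet groups.

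MSMO1 (NM_001098863), the sterol C4-methyl oxidase, had signals of 13.46 in L5, 12.15 in L6, 13.23 in L8 and 12.05 in L9, and of 11.95 in L1, 13.76 in L2, 12.25 in L3 and 14.01 in L10. Its gap between upper and lower fetuses was 0.98 and its LN-HN difference -0.27 (standard error 0.53, limma adjusted p = 0.945, exact permutation p = 0.571). This difference became 0.068 without L10.

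CYP51A1 (NM_001025319), the lanosterol 14α-demethylase, had signals of 11.36 in L5, 9.93 in L6, 11.04 in L8 and 9.88 in L9, and of 10.01 in L1, 11.42 in L2, 10.38 in L3 and 12.09 in L10. Its difference of -0.42 (standard error 0.51, limma adjusted p = 0.911, exact permutation p = 0.429) came down to -0.048 without L10.

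DHCR7 (NM_001014927), which makes cholesterol from 7-dehydrocholesterol, had signals of 12.00 in L5, 11.53 in L6, 12.34 in L8 and 11.07 in L9, and of 11.29 in L1, 12.45 in L2, 11.64 in L3 and 13.18 in L10. Its difference was -0.41 over all 8 fetuses (limma adjusted p = 0.892) and -0.060 without L10. NSDHL (NM_001035482), which acts beside MSMO1 in C4 demethylation, had signals of 9.11 in L5, 8.44 in L6, 9.38 in L8 and 8.22 in L9, and of 8.58 in L1, 9.52 in L2, 8.46 in L3 and 10.06 in L10. Its difference of -0.37 likewise became -0.064 without L10. In both genes the upper fetuses were L5, L8, L2 and L10.

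TM7SF2 (NM_174622), a sterol C14-reductase, had the largest LN-HN difference of the enzymes. Its signals were 10.09 in L5, 9.48 in L6, 10.40 in L8 and 9.44 in L9, and 10.33 in L1, 11.36 in L2, 9.81 in L3 and 11.50 in L10. Within each diet the order was that of the other enzymes, with L5 and L8 above L6 and L9 and with L2 and L10 above L1 and L3, but L1 (10.33) lay above L5 (10.09). The means were 9.85 ± 0.47 for LN and 10.75 ± 0.81 for HN (mean ± SD, n = 4 each), and the groups overlapped. The difference of -0.90 did not pass the test (standard error 0.40, 95% interval -1.80 to 0.013, limma p = 0.0527, adjusted p = 0.785, exact permutation p = 0.143). It kept its sign with each fetus left out, between -1.21 and -0.65.

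Of the remaining enzymes of these steps, LSS, the lanosterol synthase (-0.10), HSD17B7, a 3-ketosteroid reductase of C4 demethylation (-0.34), EBP, the sterol isomerase (-0.18), and SC5D, the C5-desaturase (-0.15), had the same 4 upper fetuses. FDFT1, the squalene synthase (-0.080), missed that order narrowly, with L6 at 12.42 and L8 at 12.41, and its other probes had the order, with gaps of 0.15 and 0.89. None passed the test.

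**Figure D3:**
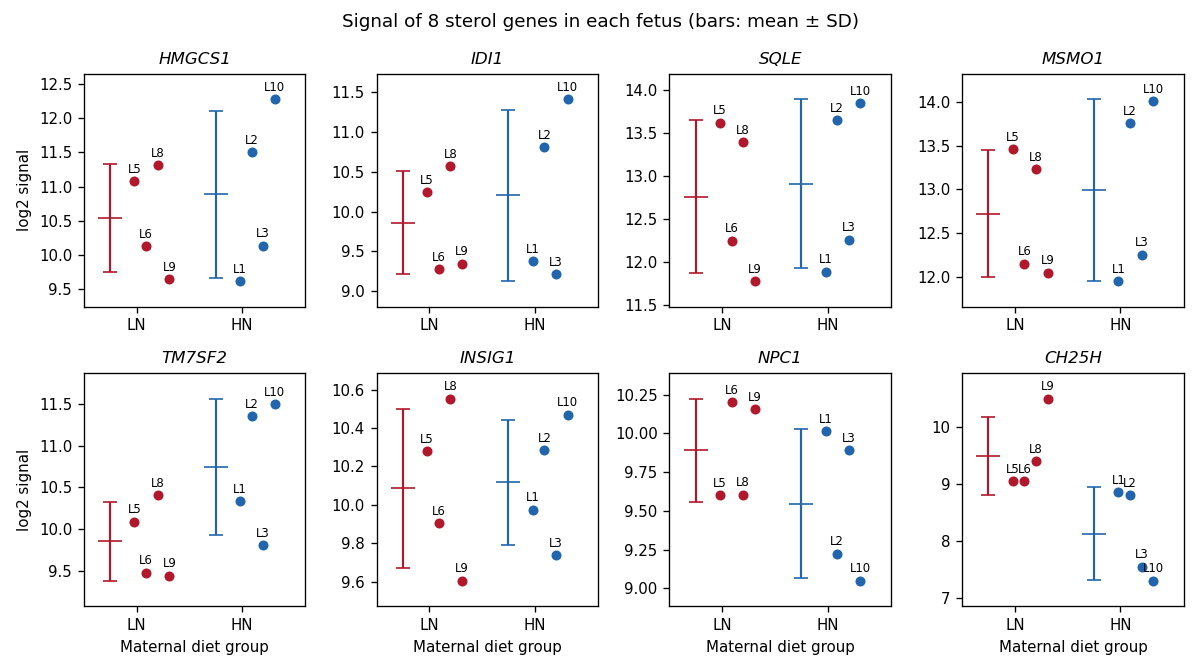
Log2 signal of 8 of the genes in each fetus (points, labelled by fetus), LN in red and HN in blue, with the group mean and SD (bars, n = 4 each). In HMGCS1, IDI1, SQLE and MSMO1 each diet group splits into an upper and a lower pair, NPC1 shows the pairs reversed, and CH25H has every LN fetus above every HN fetus.

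Among the genes that control SREBP, INSIG1 (NM_001077909), itself a target of SREBP, had signals of 10.28 in L5, 9.90 in L6, 10.55 in L8 and 9.61 in L9, and of 9.97 in L1, 10.29 in L2, 9.74 in L3 and 10.47 in L10. Its upper fetuses were the same as those of the enzymes, and its group means differed by -0.031 (standard error 0.24, limma adjusted p = 0.987, exact permutation p = 0.886). A second, dimmer probe of INSIG1 gave 0.23 and did not have that order.

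SCAP (NM_001101889) had signals of 12.42 in L5, 12.20 in L6, 12.23 in L8 and 12.23 in L9, and of 12.01 in L1, 12.51 in L2, 12.53 in L3 and 12.34 in L10. Its fetuses were not ordered as those of the enzymes, and its 3 probes differed by -0.075, 0.22 and -0.11. SREBF2 (NM_001205600) had signals of 14.48 in L5, 14.76 in L6, 14.66 in L8 and 14.51 in L9, and of 14.59 in L1, 14.43 in L2, 14.77 in L3 and 14.51 in L10. All 8 fetuses lay within 1.26-fold for this probe, whose difference was 0.026. The second brightest of its 4 probes, with a difference of -0.15, did place L5 (11.78), L8 (11.72), L2 (11.89) and L10 (11.87) above L6 (11.15), L9 (11.43), L1 (11.33) and L3 (11.58). The other probes lacked that order and differed by 0.071 and 0.32, the latter with a limma p of 0.0515 (adjusted p = 0.785, exact permutation p = 0.0571). The transcripts were measured here, and the cutting of the SREBP-2 protein was not.

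Sterol transport and storage genes did not follow the enzymes. NPC1 (NM_174758), which releases cholesterol from lysosomes, had signals of 9.60 in L5, 10.20 in L6, 9.60 in L8 and 10.16 in L9, and of 10.02 in L1, 9.22 in L2, 9.89 in L3 and 9.05 in L10. The fetuses highest in the enzymes were thus the lowest in NPC1. Its difference of 0.35 did not pass the test (standard error 0.26, limma adjusted p = 0.847, exact permutation p = 0.314) and became 0.18 without L10, and its second probe gave 0.49. NPC2, the soluble lysosomal sterol carrier, differed by -0.036 and SOAT1, which esterifies cholesterol, by 0.22, and neither passed.

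CH25H (NM_001075243) makes 25-hydroxycholesterol, an oxysterol that retains the SCAP complex and activates the nuclear receptor LXR, and is known as an interferon-induced gene of macrophages. Its signals were 9.05 in L5, 9.05 in L6, 9.39 in L8 and 10.49 in L9, and 8.86 in L1, 8.80 in L2, 7.55 in L3 and 7.30 in L10. Every LN fetus was above every HN fetus, L9 was the highest and L10 the lowest, and the whole range was 9.14-fold. The means were 9.50 ± 0.68 for LN and 8.13 ± 0.82 for HN (mean ± SD, n = 4 each). The difference of 1.37 (standard error 0.45, 95% interval 0.35 to 2.39) had an unadjusted limma p of 0.0145, an adjusted p of 0.760 and an exact permutation p of 0.0286, the smallest that 4 fetuses against 4 can give. The share of its variance between the diet groups was 52.4%, and with each fetus left out the difference stayed between 1.04 and 1.61. A second probe of CH25H was well above background on 0 of 8 arrays.

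Markers of neutrophils were set beside CH25H after their values were seen. Of 7 neutrophil markers, all detected, 6 had a higher mean in LN, while 48.4% of all genes had a lower one. A limma p of at most 0.05 before adjustment was found for 4 of the 7, against 6.05% of all genes. Their mean signal ranged from 9.12 to 10.39 in LN and from 8.14 to 9.33 in HN. This mean was highest in L9 and lowest in L10, as CH25H was, but among single markers only CATHL4 and MPO had both extremes there: CATHL2 and ELANE were also highest in L9, S100A8 and S100A9 were highest in L6, and LTF was highest in L1. Among L1, L2 and L3 the order was opposite. CH25H was 8.86, 8.80 and 7.55 in these fetuses, and the marker mean was 8.32, 9.21 and 9.33. MPO, the myeloperoxidase of neutrophil precursors, had its highest signal in L9 (9.62) and its lowest in L10 (6.96), with a difference of 1.32 (unadjusted limma p = 0.00304, adjusted p = 0.760, exact permutation p = 0.0286). The part of these cells in the CH25H result was not tested. In whole tissue, fewer cells of a type and less RNA per cell cannot be told apart. Of 7 macrophage markers 6 were detected, with mean signals of 12.2 to 12.9 in LN and 12.2 to 13.1 in HN, and 5 of these had a lower mean in LN.

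The spread between fetuses was large for the enzymes against the array as a whole. The pooled within-group SD had a median of 0.62 over the 19 enzymes and 0.46 over the 26 genes, against 0.23 over all genes. It was 1.03 for HMGCS1, above that of 98.2% of all genes, 0.94 for SQLE, 0.90 for MSMO1, 0.89 for IDI1 and 0.86 for CYP51A1. For 11 of the 26 genes it lay above the 90th percentile of all genes, and for SREBF2, SCAP, GGPS1 and PMVK it lay below the median. Only for CH25H and TM7SF2 was the LN-HN difference larger than the pooled SD. The share of variance that lay between the diet groups had a median of 6.85% over the 26 genes and of 10.5% over all genes. Slide and scan went with diet and are part of this share.

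**Figure D4:**
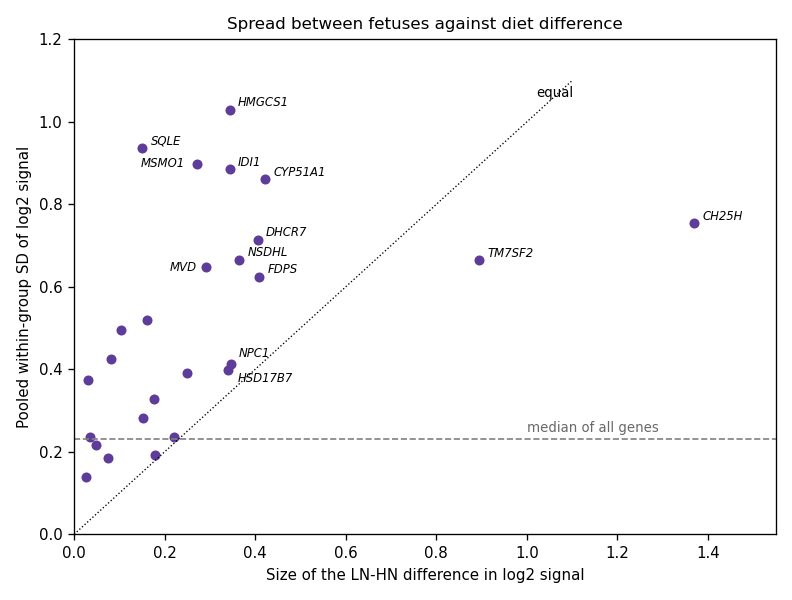
Pooled within-group SD of log2 signal against the size of the LN-HN difference for the 26 genes, with the line where both are equal (dotted) and the median SD of all genes (dashed). Only CH25H and TM7SF2 lie below the dotted line, and HMGCS1 has the largest SD, 1.03.

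The mean deviation of the 19 enzymes from their 8-fetus means was 0.20 in L5, 0.29 in L8, 0.45 in L2 and 0.87 in L10, and -0.47 in L6, -0.55 in L9, -0.43 in L1 and -0.37 in L3. The mean deviation of the hepatocyte markers stayed between -0.13 and 0.10. Erythroid markers stood out in L5, by 3.75, and lay between -1.63 and 0.13 in the other fetuses. Stellate and fibroblast markers were high in L2, by 0.87, and low in L3, by -0.79, and lay between -0.31 and 0.20 in the others. The mean deviations of endothelial, bile duct and lymphocyte markers lay between -0.32 and 0.35. Neutrophil markers were highest in L9, by 1.15, where the enzymes were lowest, and lowest in L10, by -1.10, where the enzymes were highest. In the other fetuses they were -0.12 in L5, 0.64 in L6, 0.28 in L8, -0.91 in L1, -0.03 in L2 and 0.09 in L3. In L8 both lists were thus above 0, and in L1 both were below 0. Macrophage markers ran from -0.47 in L2 to 0.38 in L3. Before normalization, the log2 75th percentile of the array was 9.72 in L5, 9.47 in L8, 9.62 in L2 and 9.17 in L10, and 8.997 in L6, 9.05 in L9, 9.49 in L1 and 9.28 in L3. When the arrays were scaled to that percentile instead, 16 of the 26 genes had L5, L8, L2 and L10 highest. The 4 arrays sat at positions 1, 3, 2 and 4 of their slides. The part of cell make-up and of array brightness in the order of the fetuses was not tested.

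**Figure D5:**
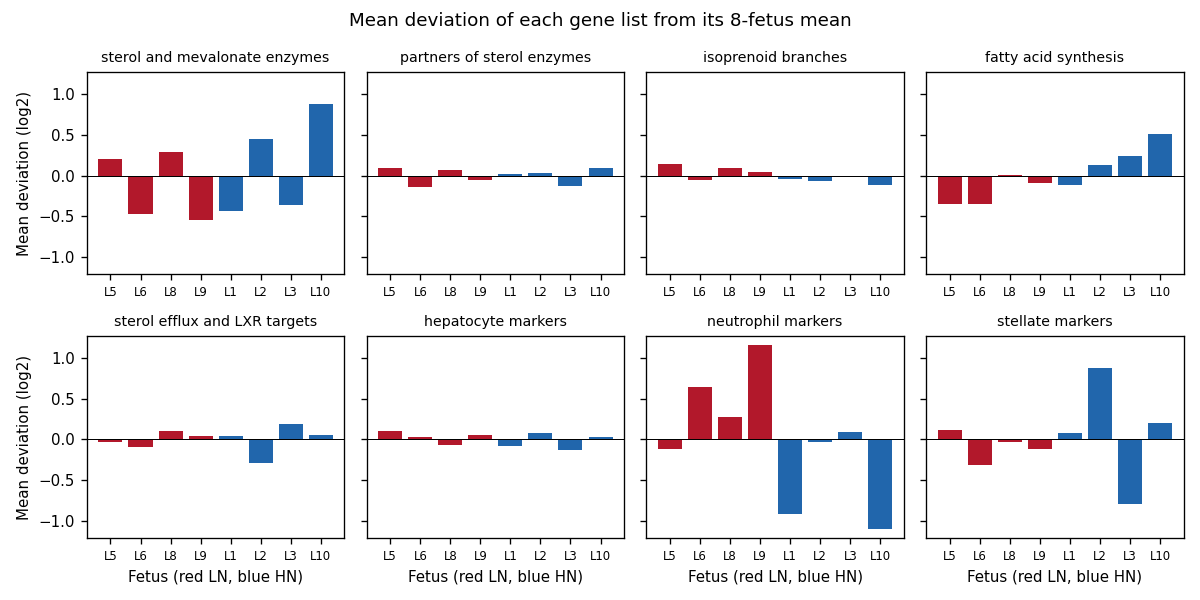
Mean deviation of 8 gene lists from their 8-fetus means, by fetus (bars, log2 units, LN red and HN blue). The 19 sterol and mevalonate enzymes are above 0 in L5, L8, L2 and L10 and below 0 in the other fetuses. The hepatocyte markers stay between -0.13 and 0.10, but lie near the top of the signal range, where normalization leaves little room to differ.

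The neighbouring pathways were described from lists of their genes, in none of which a gene passed an adjusted p of 0.05. Over all genes, 48.4% had a lower mean in LN, 6.05% had a limma p of at most 0.05 before adjustment and 4.14% did not overlap. The order with L5, L8, L2 and L10 highest held in 4.24% of all genes. Of 10 detected genes of sterol-regulated proteolysis, the proteases and ubiquitin ligases that act on SREBP and on sterol enzymes, 4 had a lower mean in LN and 0 had a limma p of at most 0.05 before adjustment. The largest difference was that of RNF145, a ubiquitin ligase of this system, with 0.77 (limma p = 0.0603, exact permutation p = 0.143). RNF145 was lowest in L2 (10.85) and L10 (10.90).

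Of 9 electron donors and partners of the sterol enzymes, 5 had a lower mean in LN. CYB5R3, the cytochrome b5 reductase, did not overlap between groups by a small margin, with LN fetuses between 13.38 and 13.59 and HN fetuses between 13.59 and 13.78, and differed by -0.20 (limma adjusted p = 0.797). ERG28, a scaffold of C4 demethylation, was the single gene of that list with L5, L8, L2 and L10 highest, with a gap of 0.63 to the others.

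The 14 detected genes of the isoprenoid branches use the same precursors for dolichol, coenzyme Q and prenylated proteins. Of these, 3 were lower and 11 higher in LN. Their median difference of 0.14, against 0.0075 over all genes, became 0.0845 without L10. NUS1, a subunit of the dolichol-forming prenyltransferase, had LN fetuses between 11.33 and 11.55 and HN fetuses between 10.94 and 11.17, and differed by 0.32 (standard error 0.11, limma p = 0.0185, adjusted p = 0.760, exact permutation p = 0.0286). DOLK, the dolichol kinase, did not overlap either, with 10.62 to 10.79 in LN and 10.44 to 10.59 in HN and a difference of 0.22 (limma adjusted p = 0.785). In 1 gene of the list, SRD5A3, were L5, L8, L2 and L10 the highest.

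Lipoprotein uptake and intracellular sterol carriers (14 detected genes) had 7 lower and 7 higher in LN. Of 10 detected genes of sterol efflux and LXR response, 5 were lower and 5 higher. The largest difference was that of LPCAT3, a phospholipid acyltransferase, with -0.35 (limma adjusted p = 0.830), which became -0.16 without L10. ABCA1, the transporter that loads cholesterol onto apolipoprotein A-I, had the reverse order of the enzymes, as NPC1 did: its signals were 7.91 in L5, 8.10 in L8, 7.26 in L2 and 8.10 in L10, and 8.82 in L6, 8.82 in L9, 8.45 in L1 and 8.70 in L3. OSBP, an oxysterol-binding protein, had the same 4 lowest fetuses. ABCA1 and OSBP were each the single gene of their list with this reverse order, which 4.26% of all genes had. SCARB1, the receptor for high-density lipoprotein, had the order of the enzymes, with a gap of 0.084.

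In fatty acid synthesis and desaturation, which answers to the related factor SREBP-1, 8 of 11 detected genes had a lower mean in LN, and 4 had L10 highest. THRSP, a lipogenic gene responsive to thyroid hormone, was 6.32 in L5, 4.14 in L6, 6.32 in L8 and 5.44 in L9, and 6.39 in L1, 7.73 in L2, 7.58 in L3 and 8.80 in L10. The groups did not overlap, though L1 lay only just above L5 and L8, and the difference was -2.07 (standard error 0.60, limma p = 0.00742, adjusted p = 0.760, exact permutation p = 0.0286). ACSS2, which makes cytosolic acetyl-CoA from acetate, was the single gene of that list with L5, L8, L2 and L10 highest.

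In bile acid synthesis, 5 of 8 detected genes had a lower mean in LN. ACOX2, which shortens the side chain in peroxisomes, had 12.57 to 12.74 in LN and 12.91 to 13.23 in HN and differed by -0.39 (standard error 0.12, limma p = 0.00795, adjusted p = 0.760, exact permutation p = 0.0286). HSD17B4, the peroxisomal bifunctional enzyme, did not overlap and was higher in LN by 0.21 (limma adjusted p = 0.798). CYP7A1, the rate-limiting enzyme of bile acid synthesis, had the largest difference of the list, -0.96, but was well above background on 1 LN and 3 HN arrays and overlapped (limma adjusted p = 0.885), and the difference was -0.47 without L10. In steroid conversion, 7 of 8 genes had a lower mean in LN, and HSD17B11 and HSD17B12 had L5, L8, L2 and L10 highest. HSD11B1, which regenerates active glucocorticoid, differed by -0.999 (limma p = 0.0330, adjusted p = 0.783, exact permutation p = 0.0571), and HSD17B6, a hydroxysteroid dehydrogenase, by -1.19 (limma p = 0.0610, adjusted p = 0.785, exact permutation p = 0.143).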

How the data were processed

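Liver RNA of 8 fetuses was hybridised in 1 colour to Agilent bovine arrays, with 1 fetus per array in the labels, although the series text mentions RNA pooled by group. The authors deposited scanner output, in which each spot has a background-subtracted intensity made by Agilent Feature Extraction 11.0.1.1 without scaling across arrays. A further table deposited by the authors gives log2 signals of 31068 probes. These are the ones well above background on every array, and their log2 intensities, quantile normalized, came within 0.0423 of it. Here 16 probes with outlier marks were dropped, and log2 intensities of the other 43637 were quantile normalized. Detection required a signal well above background on 4 or more arrays, which 33439 probes had. Accessions of 26740 probes were matched to 12603 genes of a RefSeq table (assembly ARS-UCD2.0), and no coordinates are given because the array was designed on an older build. Of the 26 genes measured, 21 had more than 1 detected probe, and for INSIG1, SCAP and SREBF2 the probes differed in sign.

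The 2-sided comparison of LN with HN used lmFit and eBayes of limma 3.58.1 under R 4.3.3, with Benjamini-Hochberg adjustment over all detected probes, and single genes also with an exact 2-sided permutation test over all 70 divisions of the fetuses into 4 and 4. The functions were tested on simulated data. The genes and lists were chosen with earlier results of these data known. Values in every fetus are given for the genes with the 6 largest differences or SDs, those without overlap or with a limma p of at most 0.05 before adjustment and the SREBP control genes, and those of NPC1 were added after its values were seen. Of each list, the gene with the largest difference and those without overlap or with such a p are named, as are ERG28, SRD5A3, SCARB1, ACSS2, HSD17B11, HSD17B12, ABCA1, OSBP and the neutrophil markers, chosen after their values were seen. The result of 1 gene that meets this rule is not reported here, and list counts still hold it. Alternatives were scaling to the 75th percentile, normexp correction (offset 50), the authors' log2 table, no filter or detection on all 8 arrays, the mean over probes, eBayes with trend and robust settings, Student's test, and each fetus left out in turn. With 4 arrays a group, the precision of each difference is limited.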

Additional observations from a re-analysis of the deposited data

Results flagged for a closer look

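In GGPS1, the signal of LN fetus L5 (10.22) lay far from those of the other LN fetuses (9.82 to 9.88), with a gap of 0.841 of the group's range. In SCAP, LN fetus L5 (12.42) likewise lay above the other LN fetuses (12.20 to 12.23), with a gap of 0.842 of the range. Both gaps exceeded the critical value of Dixon's test for 4 samples. These were 2 of 52 groups looked at, and chance gives about 1 in 20.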

How the results depend on the processing

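With scaling to the 75th percentile, normexp correction, the authors' log2 table, no filter, detection on all 8 arrays or the mean over probes, 19 to 21 of the 26 genes were lower in LN, 15 to 18 had L10 highest and 15 to 17 had L5, L8, L2 and L10 highest, the last count having been added after seeing the data. Genes at an unadjusted p of 0.05 were 2 with the authors' table, with detection on all 8 arrays and with trend and robust settings, where TM7SF2 joined CH25H. With the mean over probes, the difference of INSIG1 became 0.10 and that of SCAP 0.014. The adjusted p of CH25H ranged from 0.520 to 0.792 under these settings, and from 0.624 to 0.9995 with each fetus left out.

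With each fetus left out in turn, 11 to 21 genes were lower in LN (11 without L10, 15 without L9), the median ranged from -0.32 to 0.029 (reversed without L10), 1 to 2 genes had an unadjusted p of at most 0.05 (2 without L8, L1 or L3), 1 to 2 did not overlap (2 without L1, where GGPS1 joined CH25H), and 0 to 1 probe passed an adjusted p of 0.05 (1 without L6). The sign changed in 12 genes and was kept in 14. The ranges were -0.39 to 0.066 for ACAT2, -0.30 to 0.15 for FDFT1, -0.77 to 0.12 for HMGCS1, -0.67 to 0.058 for IDI1, -0.19 to 0.13 for INSIG1, -0.27 to 0.12 for LSS, -0.62 to 0.068 for MSMO1, -0.50 to 0.054 for MVD, -0.18 to 0.058 for NPC2, -0.14 to 0.037 for PMVK, -0.49 to 0.18 for SQLE and -0.027 to 0.092 for SREBF2. Of these, 10 changed sign without L10 and 6 without L9. Without L10, some differences that kept their sign also shrank, to -0.042 for MVK, -0.22 for HSD17B7, -0.0029 for EBP, -0.029 for SC5D and 0.15 for SOAT1. The cause was not tested. No paired analysis was possible because no fetus number was shared between the groups. Promoter motifs were not analysed here.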

Other observations

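Genes outside the sterol lists shared the order of fetuses seen in the sterol enzymes. The genes named here were chosen after their values were seen, by the gap between the lower end of L5, L8, L2 and L10 and the upper end of L6, L9, L1 and L3, or as a known relative of a pathway above. SGK2, a serum- and glucocorticoid-regulated kinase, had a gap of 1.09, with an LN-HN difference of -0.26. NDNF, a secreted factor, had a gap of 0.99 and CUBN, the endocytic receptor cubilin, one of 0.94. TRH, the gene of thyrotropin-releasing hormone, had signals of 12.78 in L5, 12.68 in L8, 12.88 in L2 and 13.52 in L10, and of 11.46 in L6, 10.98 in L9, 11.11 in L1 and 11.78 in L3. Its gap of 0.90 lay between those of HMGCS1 (0.95) and IDI1 (0.86). ARG2, the mitochondrial arginase, had a gap of 0.58, with 10.04 in L10 and 9.58 in L2 against 7.42 in L1 and 6.91 in L3. AACS, which activates acetoacetate for lipid synthesis in the cytosol, had a gap of 0.26. In all, 460 of 10860 genes had this order and 463 had its reverse.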
